A study of Mus musculus with 2 samples.

Results

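Notch receptors, the proteins that carry or restrain their signal, and classical Notch target genes were examined. The cells were sorted as group 3 innate lymphoid cells (ILC3s), innate lymphocytes of the gut wall that lack antigen receptors and answer to cytokines. The 9 genes were taken by symbol from the annotation of the array: Notch1, Notch2, Notch3, Rbpj, Maml1, Numb, Hes1, Dtx1 and Nrarp. Each of the 9 was measured by 1 probe set, and together they were 9 of 19505 named genes. Of the 2 arrays, 1 came from circKcnt2-deficient ILC3s and 1 from WT ILC3s, with 100000 cells sorted per sample according to the labels. circKcnt2 is a circular RNA made from exons of the Kcnt2 transcript. The deficient mice carried a CRISPR/Cas9 deletion of intronic sequence needed for circle formation, present in all cells of the body. The paper names littermate WT mice for its counts of ILC progenitors and does not say whether the WT mice of these arrays were littermates. Mice of both genotypes had been given dextran sodium sulfate, which injures the gut epithelium and causes colitis. The paper sorts ILC3s as cells without lineage markers that are low for CD45, gated either on high CD90 or on RORγt. Its methods do not say which gate was used for these arrays. The labels give no age, sex or number of mice per array. With 1 array per genotype no value has a replicate check, and the genotypes were compared as values without a test or a p-value.

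Notch receptors are single-pass membrane proteins that are cut on contact with a ligand on a neighbouring cell. The freed intracellular part enters the nucleus, binds the DNA-binding protein RBPJ and the co-activator MAML1, and turns on genes such as Hes1, Dtx1 and Nrarp. The pathway is known for directing progenitors in the thymus to the T lineage, and it also contributes to the development of some ILC3s.

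All values are log2 levels, and all differences are circKcnt2-deficient minus WT. A background level of 2.73 was set from 1410 olfactory and vomeronasal receptor genes. It is the 95th percentile over these genes of the higher of each gene's values on the 2 arrays. In all, 12502 genes (64.1%) reached it on at least 1 array, and their median difference was 0.06. Kcnt2, the host gene of the circle, was at 1.45 on both arrays, below background, and gave no check of the genotype labels. Batf, the AP-1 family factor that the study followed, was at 10.73 on the circKcnt2-deficient array and 5.71 on the WT array. The arrays also differed in 3 Y-linked genes, which were at 1.24 to 2.45 on the circKcnt2-deficient array and at 4.63 to 5.26 on the WT array. Only the WT array reached the background level for these Y-linked genes, so signal of male cells was seen there alone. With 1 array each, sex of the mice and genotype cannot be told apart. The part of sex in the Notch values was not tested.

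The label ILC3 was checked against marker genes. Of 14 measured ILC3 markers, 10 were above background on at least 1 array, as were 64.1% of all genes. The highest was Id2, at 8.39 on the circKcnt2-deficient array and 8.40 on the WT array. Ltb was at 7.27 on the circKcnt2-deficient array and 7.41 on the WT array. Il7r, the IL-7 receptor, was at 7.70 on the circKcnt2-deficient array and 7.86 on the WT array, and Kit was at 3.74 on the circKcnt2-deficient array and 3.67 on the WT array. Il23r, Il1r1 and Ncr1 were below background on both arrays. T cell genes were high, though the ILC3 gates of the paper take only cells without lineage markers. Cd3e was at 10.16 on the circKcnt2-deficient array and 9.98 on the WT array, Cd4 at 9.28 on the circKcnt2-deficient array and 9.10 on the WT array, and Cd8a at 9.71 on the circKcnt2-deficient array and 9.65 on the WT array. All 9 measured genes of an immature thymocyte list were above background on both arrays, at 5.28 to 9.60 on the circKcnt2-deficient array and 5.57 to 9.46 on the WT array. Among them Dntt, the template-free DNA polymerase of antigen receptor assembly, was at 8.24 on the circKcnt2-deficient array and 8.25 on the WT array. Rag2, a subunit of the recombinase, was at 6.80 on the circKcnt2-deficient array and 6.17 on the WT array. The data therefore go against a pure ILC3 sample, and the Notch values below are those of the RNA as labelled. In such RNA, fewer cells of a type and less RNA per cell cannot be told apart.

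To show where the signal of the pathway and its feedback could meet DNA, the 250 bases before the start of 3 target genes are given from RefSeq (assembly GRCm38.p6). Hes5 is shown because its window held matches to the RBPJ site, and Nrarp and Dtx1 as target genes among the 9 whose window held matches to the HES and HEY site. In Hes5 the capitals mark GTGGGAA or its other strand TTCCCAC, the RBPJ site. In Nrarp and Dtx1 they mark CACGNG or its other strand CNCGTG, a site bound by HES and HEY repressors.
Hes5, chr4:154960673-154960922, + strand: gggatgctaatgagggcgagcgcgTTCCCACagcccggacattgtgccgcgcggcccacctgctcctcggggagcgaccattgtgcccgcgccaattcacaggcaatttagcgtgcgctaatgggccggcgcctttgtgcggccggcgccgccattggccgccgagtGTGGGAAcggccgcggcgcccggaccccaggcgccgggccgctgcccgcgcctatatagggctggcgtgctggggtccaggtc
Nrarp, chr2:25180508-25180757, + strand: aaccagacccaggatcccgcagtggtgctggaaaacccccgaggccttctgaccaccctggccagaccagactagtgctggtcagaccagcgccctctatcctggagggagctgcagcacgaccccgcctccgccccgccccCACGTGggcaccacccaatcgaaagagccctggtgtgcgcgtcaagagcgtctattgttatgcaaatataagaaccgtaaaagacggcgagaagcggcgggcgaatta
Dtx1, chr5:120711670-120711919, - strand: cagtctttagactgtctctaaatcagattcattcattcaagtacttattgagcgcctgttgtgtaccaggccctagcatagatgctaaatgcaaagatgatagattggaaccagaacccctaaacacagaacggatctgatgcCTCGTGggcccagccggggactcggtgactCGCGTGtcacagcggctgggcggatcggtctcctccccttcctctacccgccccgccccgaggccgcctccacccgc

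Hes5 held 2 RBPJ matches, Nrarp held 1 HES and HEY match and Dtx1 held 2. Windows were found for 8 of the 9 genes, 11 windows in all, because Rbpj and Numb have several starts. Hes1 had no window, so its upstream sequence was not searched. None of the 11 held the RBPJ letters and 5 held the HES and HEY letters. Of all 32851 windows of this length, 5.42% held the RBPJ letters and 23.5% the HES and HEY letters. None of the 3 windows shown held both motifs. Over the whole pathway list described below, 5 of 68 windows (7.35%) held the RBPJ letters, those of Hes5, Hey2, Lfng, Psen2 and Spen, and 24 (35.3%) held the HES and HEY letters. A match is a run of letters and not a measured site, and the arrays did not measure binding.

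The first comparison asked whether the receptors differed between the circKcnt2-deficient and WT arrays. All 3 were above background on both arrays and none differed by 1.5-fold. Notch1, the receptor that drives T lineage commitment, was at 5.89 on the circKcnt2-deficient array and 5.62 on the WT array, a difference of 0.27 (1.21-fold). Notch2, known for its role in marginal zone B cells, was at 4.56 on the circKcnt2-deficient array and 4.70 on the WT array, a difference of -0.14. Notch3, a receptor of thymocytes and vascular smooth muscle, was at 4.26 on the circKcnt2-deficient array and 4.06 on the WT array, a difference of 0.19. Notch1 and Notch3 were thus slightly higher and Notch2 slightly lower on the circKcnt2-deficient array. These signs were the same after the loess correction, quantile normalization, subtraction of the median difference and addition of 32 before the logarithm, the settings that can change the value of a gene above background with 1 probe set. The fourth receptor, Notch4, which is known from endothelium, was at 3.79 on the circKcnt2-deficient array and 3.75 on the WT array.

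**Figure D1:**
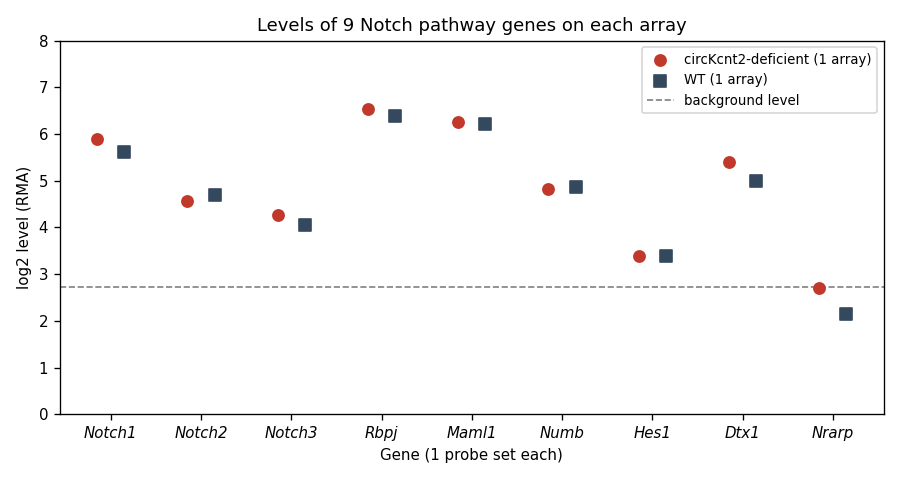
Log2 level (y axis) of each of the 9 genes (x axis) on the circKcnt2-deficient array (circles) and the WT array (squares), 1 array each, with the background level of 2.73 as a dashed line. Only Nrarp lies below the line, on both arrays, and the symbols of every other gene lie within 0.41 of each other. The plot compares arrays within a gene, since probes of different genes are not equally bright.

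The nuclear partners of the receptors were as close. Rbpj, the DNA-binding protein that all 4 receptors act through, was at 6.54 on the circKcnt2-deficient array and 6.39 on the WT array, a difference of 0.15 that became -0.0017 after the loess correction. Maml1, the co-activator of that complex, was at 6.27 on the circKcnt2-deficient array and 6.22 on the WT array, a difference of 0.04 that turned to -0.11 after the loess correction, -0.09 after quantile normalization and -0.016 after subtraction of the median difference. Neither gene therefore had a settled direction. Numb, an endocytic adaptor that restrains Notch, was at 4.83 on the circKcnt2-deficient array and 4.87 on the WT array, a difference of -0.04.

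The target genes came next, since their transcripts follow activity of the pathway. Hes1, a transcriptional repressor and a widely used readout of Notch, was at 3.38 on both arrays, and its difference was below 0.01 in size. It exceeded 99.1% of the receptor genes used for the background level on the circKcnt2-deficient array and 98.4% on the WT array. Dtx1, a ubiquitin ligase of the Deltex family and a Notch target in lymphocytes, was at 5.41 on the circKcnt2-deficient array and 5.002 on the WT array. Its difference of 0.41 (1.33-fold) was the highest among the 8 genes above background, and ran from 0.22 to 0.41 over the alternatives. Nrarp, an ankyrin repeat protein that dampens Notch as feedback, was at 2.69 on the circKcnt2-deficient array and 2.15 on the WT array. Both values were below background, so no fold is given for Nrarp.

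On the circKcnt2-deficient array, 5 of the 8 genes above background were higher and 3 lower, and the median of the 8 differences was 0.10. For all 12502 genes above background the median was 0.06, and 56.4% were higher. None of the 8 was at least 1.5-fold higher, where 7.66% of all genes were, and none was at least 1.5-fold lower, where 5.22% were. None was 2-fold higher or lower either, against 1.11% and 0.512% of all genes. The differences were then set among genes of like level, 20 bins of 625 or 626 genes each. All 8 lay within the middle 95% of their bin, outside which 5.12% of genes lay by construction, at percentiles 29.4 (Notch2) to 79.8 (Dtx1), and each lay less than 1 robust SD from the median of its bin. The robust SD of these bins ran from 0.20 to 0.44 across all levels. Without replicate arrays it describes the scatter between genes and not an error of measurement.

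**Figure D2:**
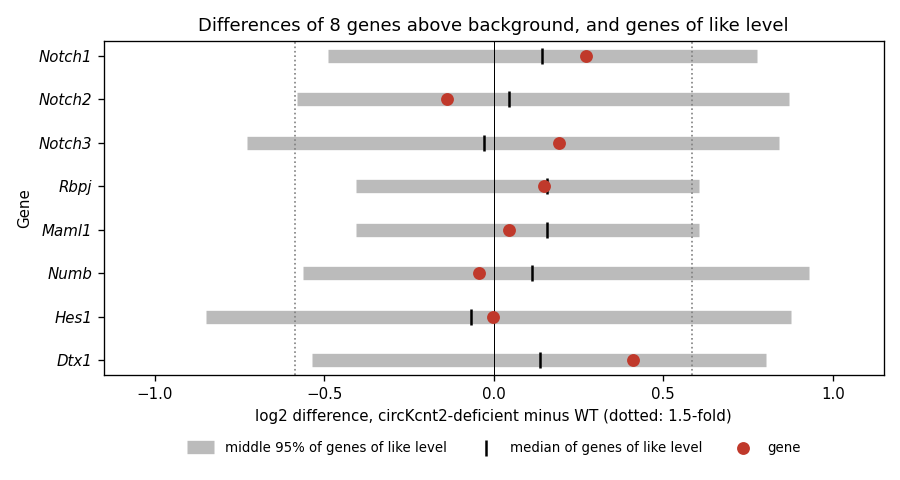
Log2 difference, circKcnt2-deficient minus WT (x axis), of the 8 genes above background (rows, red points). Grey bars are the middle 95% and black ticks the median of genes of like level, and dotted lines mark 1.5-fold. Every point lies inside its bar and between the dotted lines, from -0.14 for Notch2 to 0.41 for Dtx1.

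The rest of the pathway was described with a list of 65 genes that holds the 9, of which 61 had a value and 53 were above background. On the circKcnt2-deficient array 32 of these 53 were higher and 21 lower. Their median difference was 0.04, against 0.06 for all genes above background. At least 1.5-fold higher were 2 genes (3.77%, against 7.66% of all genes), and at least 1.5-fold lower were 3 (5.66%, against 5.22%). None of the 5 is among the 9 genes.

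Of the 5 ligands, 4 (Dll1, Dll3, Dll4 and Jag1) were below background on both arrays. Jag2 was at 3.13 on the circKcnt2-deficient array and 3.31 on the WT array. Ligands are usually presented by stromal, epithelial or endothelial cells. At least 1 array was above background for 4 of 7 epithelial, 3 of 6 endothelial and 3 of 5 fibroblast markers. Of all genes 64.1% were, so these shares were no higher than that of genes at large. Cdh5, Kdr and Tek of the endothelial list were below background on both arrays, and Vwf was above it on the WT array only, at 3.07. Pecam1 of that list was at 6.63 on the circKcnt2-deficient array and 6.30 on the WT array. Eng was at 6.28 on the circKcnt2-deficient array and 5.30 on the WT array, 1.98-fold higher and at percentile 99.4 of genes of like level. The epithelial list ran over 1.86 to 4.48 on the circKcnt2-deficient array and 1.58 to 4.50 on the WT array, the endothelial list over 1.39 to 6.63 on the circKcnt2-deficient array and 1.56 to 6.30 on the WT array, and the fibroblast list over 1.81 to 4.62 on the circKcnt2-deficient array and 1.86 to 4.79 on the WT array. The part of such cells in the ligand values was not tested. Of the ubiquitin ligases that act on ligands, Mib2 was at 2.94 on the circKcnt2-deficient array and 3.63 on the WT array, 1.61-fold lower, but not past 1.5-fold with the loess correction or after adding 32, and not kept by the stricter floor. Its relative Mib1 was at 6.46 on the circKcnt2-deficient array and 6.64 on the WT array.

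The 6 measured genes of receptor glycosylation and the 9 of receptor proteolysis were all above background, and none differed by 1.5-fold. Poglut1, which adds glucose to Notch, was at 5.56 on the circKcnt2-deficient array and 5.17 on the WT array. Lfng, a Fringe glycosyltransferase that tunes which ligands Notch answers to, was at 5.84 on the circKcnt2-deficient array and 6.09 on the WT array. Gamma-secretase releases the intracellular part of the receptor. Of its subunits, Psenen was at 8.71 on the circKcnt2-deficient array and 8.48 on the WT array. Psen2 was at 3.89 on the circKcnt2-deficient array and 4.28 on the WT array, the largest difference in size of the proteolysis group (-0.39). Aph1b and Aph1c are close copies of each other, so their probe sets may share signal and their values are uncertain.

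The 8 genes of the nuclear activation complex, Rbpj and Maml1 among them, ran from -0.10 to 0.23. Maml2, a relative of Maml1, was at 6.25 on the circKcnt2-deficient array and 6.02 on the WT array, and Ep300, a histone acetyltransferase recruited by MAML proteins, was at 7.23 on the circKcnt2-deficient array and 7.07 on the WT array. Of 6 corepressors above background none passed 1.5-fold. Tle1, a Groucho family corepressor used by HES proteins, had the largest difference, at 4.16 on the circKcnt2-deficient array and 3.60 on the WT array, and Tle3 was at 8.72 on the circKcnt2-deficient array and 8.83 on the WT array. Among the genes of receptor trafficking and turnover, Numbl and Dtx3 stood farthest from 0. Numbl, a homologue of Numb, was at 3.79 on the circKcnt2-deficient array and 4.44 on the WT array, 1.56-fold lower, but not past 1.5-fold after adding 32. Dtx3, a Deltex ligase like Dtx1, was at 4.42 on the circKcnt2-deficient array and 3.81 on the WT array, 1.52-fold higher, but not past 1.5-fold with quantile normalization, subtraction of the median difference or addition of 32. Aak1, an endocytic kinase that associates with Numb, was at 8.07 on the circKcnt2-deficient array and 7.88 on the WT array.

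Of the 8 target genes above background, 4 were higher on the circKcnt2-deficient array and 4 lower, among them Hes1 with a difference near 0 whose sign changed with the scaling. The highest was Myc, a growth regulator and Notch target in thymocytes, at 7.77 on the circKcnt2-deficient array and 6.97 on the WT array (1.74-fold higher), at percentile 99.2 of genes of like level. It was the 1 gene of 53 in the pathway list outside the middle 95%, where 5.12% of all genes lay by construction. Ptcra, the pre-T cell receptor alpha chain and itself a marker of immature thymocytes, was at 6.53 on the circKcnt2-deficient array and 6.17 on the WT array. Il2ra, the IL-2 receptor alpha chain, was at 3.07 on the circKcnt2-deficient array and below background on the WT array, at least 1.26-fold higher. Dtx1 was the other higher gene.

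The remaining target genes were Hey1, Hes5, Heyl and Hes1. Hey1 was at 2.89 on the circKcnt2-deficient array and 3.51 on the WT array, 1.54-fold lower, but not past 1.5-fold with the loess correction, quantile normalization or addition of 32, and not kept by the stricter floor. Hes5 was at 5.70 on the circKcnt2-deficient array and 6.04 on the WT array, and Heyl at 4.16 on the circKcnt2-deficient array and 4.34 on the WT array. Hes1 showed the near-zero difference given above, which became 0.09 after the loess correction and 0.04 after quantile normalization.

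**Figure D3:**
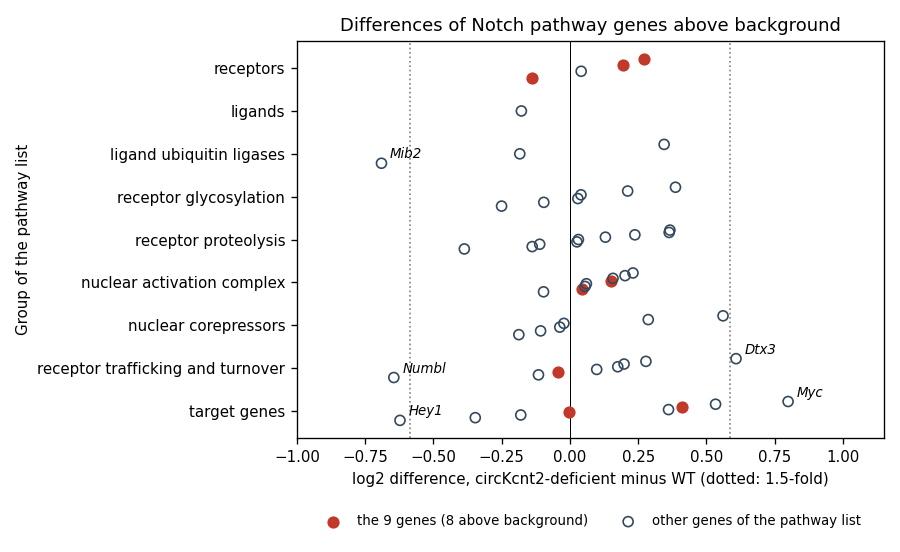
Log2 difference, circKcnt2-deficient minus WT (x axis), of the 53 pathway genes above background by group (y axis), with the 9 genes as filled points (8 above background) and all others open. Dotted lines mark 1.5-fold. Only Myc and Dtx3 lie to the right of the lines and only Mib2, Numbl and Hey1 to the left.

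Other measures differed between the arrays beside these values. Of 9 measured cell cycle genes, 8 were at least 1.5-fold higher on the circKcnt2-deficient array (median difference 0.96), beside the higher Myc. Of 10 immediate early genes, 6 were at least 1.5-fold lower (median difference -0.78). The immature thymocyte list had a median difference of 0.28, with 1 of 9 genes at least 1.5-fold higher, and the T cell list had a median difference of 0.08 with none. These lists were chosen with earlier results of these data known. The part of their genes in the Notch values was not tested.

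Background also differed with base composition. The array holds 23 control probe sets for background, 1 for each number of G and C bases in the probe. Those with 12 or more such bases, 14 probe sets, were all lower on the circKcnt2-deficient array, by 0.04 to 0.33, and they reached 5.79 on the circKcnt2-deficient array and 5.91 on the WT array. Of the 9 genes, only Rbpj and Maml1 were above the highest of these controls on both arrays. Notch1 exceeded the highest control of its own array on the circKcnt2-deficient array but not on the WT array. Notch2, Notch3, Numb, Hes1, Dtx1 and Nrarp lay within the range of the controls on both arrays, as did Hey1, Heyl, Mib2, Numbl and Dtx3. Base composition of the probes was not analysed here, so the part of background in these levels and differences was not tested.

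**Figure D4:**
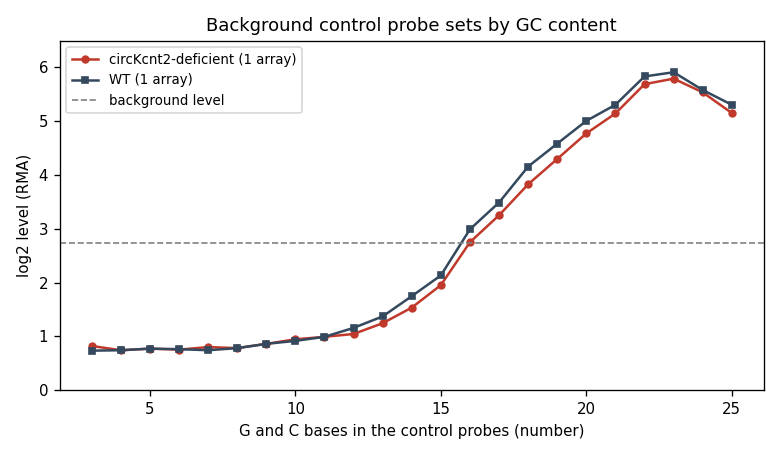
Log2 level (y axis) of 23 background control probe sets against the number of G and C bases in their probes (x axis), on the circKcnt2-deficient array (circles) and the WT array (squares). The dashed line is the background level of 2.73. From 12 bases up the circKcnt2-deficient array lies below the WT array, by 0.04 to 0.33.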

How the data were processed

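Total RNA was extracted with Trizol, biotin-labelled and hybridized to Affymetrix mouse arrays, 1 per genotype, and groups were taken from the genotype labels. Each probe set had 1 deposited log2 value per array. The authors obtained it by RMA in Affymetrix Power Tools (version: not given in the sources used here), which corrects background, makes the arrays' distributions alike and sums up probes by median polish, so that a change common to all genes could be removed. Scanner images were not used here. Of 29129 probe sets, 19572 had 1 gene symbol in the platform annotation, and 55 genes with more than 1 probe set were given their average.

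From these values the level on each array, the difference, the fold and the position among genes of like level (20 bins of mean level) were computed in Python 3.11.15 with numpy 2.4.6, pandas 2.3.3 and statsmodels 0.14.6. The robust SD is the scaled median absolute deviation. With 1 array per group no test was run. The number of arrays limits the precision. A gene was kept if it reached the background level on at least 1 array. Below it on 1 array only a bound on the fold is given.

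Alternatives were no floor, a stricter floor (genes in the upper part of all mean levels, from their median), low values raised to background, removal of a loess trend of differences along mean level (the loess correction, span 0.3), quantile normalization, subtraction of the median difference, the brightest probe set of a gene, 32 added before the logarithm, and a 2-fold threshold.

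Named genes were the 9 genes, pathway genes past 1.5-fold, and those with the largest difference or the highest mean level in their group. A few others were named after their values were seen. The 9 genes and all lists were chosen with earlier results of these data known. Pathway genes with no value are not analysed here. Counting was tested on simulated data.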

Additional observations from a re-analysis of the deposited data

How the results depend on the processing

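No paired analysis was possible because there was 1 array per group. None of the 8 genes above background passed 1.5-fold in any setting. The count of members at least 1.5-fold higher was 1 with quantile normalization, where Nrarp reached the background level and 6.08% of all genes kept were that much higher. The count of pathway genes at least 1.5-fold higher, 2 as reported, was 4 after the loess correction, which added Tle1 and Il2ra, 1 after subtraction of the median difference, 1 after adding 32 and 0 at 2-fold. The shares of all genes kept that were higher in these settings were 7.04%, 5.78%, 0.552% and 1.11%. The count of lower ones, 3 as reported, was 1 with the stricter floor and 1 after the loess correction (Numbl in both), and 0 after adding 32 and 0 at 2-fold. With quantile normalization Dtx3 and Hey1 no longer passed 1.5-fold, and Nrarp and Il2ra did. With background set at the level of the highest GC control, a setting chosen after seeing the data, 1 was higher (Myc) and 0 were lower, of 21 pathway genes kept. Of all 3467 genes kept there, 5.74% were higher and 0.894% lower. Myc passed 1.5-fold in every setting except the 2-fold threshold. The median difference of the pathway, 0.04, was -0.0035 after the loess correction, -0.0069 after quantile normalization and -0.016 after subtraction of the median difference, and the median of all genes under these settings was -0.0013, -0.014 and 0.00. The cause of these changes was not tested, other than that fewer genes are kept by the higher floors. The pathway median kept its sign in the other settings. The signs of Rbpj, Maml1 and Hes1 changed with the scaling as given above, and those of the other 5 genes above background did not.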
